A study of Drosophila melanogaster with 6 samples.

Results

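The Toll pathway genes examined here are spz, SPE, nec, Tl, Myd88, pll, cact, dl and Dif, together with Drs, which encodes the antifungal peptide drosomycin. They were followed in eyes dissected from male Drosophila melanogaster at day 10 and day 40 after eclosion. The 10 members were chosen by name, as the extracellular and intracellular core of the pathway and its best known target gene, among 14537 gene rows in the count files. Earlier results of these data were known at that choice. All 10 had counts in every library. Of the 10, 5 (nec, Tl, Myd88, dl and Drs) have a row of their own, and 5 were counted together with an overlapping gene. These joint rows are spz with CG43935, SPE with CG18754, pll with TfIIA-L, cact with fzy and Dif with CG15141. A value of a joint row is the count of both of its genes together.

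Toll signaling in the fly starts outside the cell. Recognition proteins that bind peptidoglycan or fungal glucan start a chain of serine proteases that ends with SPE, which cleaves the cytokine-like ligand Spätzle, the product of spz, and the serpin Necrotic (nec) restrains one branch of this chain. Cleaved Spätzle binds the receptor Toll (Tl), which recruits the adaptor Myd88 and the kinase Pelle (pll), so that the inhibitor Cactus (cact) is degraded and the NF-κB-like factors Dorsal (dl) and Dif enter the nucleus. In the fat body, the organ that makes most circulating immune peptides, Drs and the Bomanin genes are the best known targets. The same pathway sets up the dorsal-ventral axis of the embryo.

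RNA-seq libraries came from 3 samples of eyes at day 10 and 3 at day 40. All flies were male and of 1 genotype, w mutants that carry the transgene UAS-GFP-Msp300KASH and the rh1-GAL4 driver with the ry[506] allele, which puts a GFP-tagged nuclear envelope protein into the outer photoreceptors. The labels call these flies WT, although every library of both ages carries the transgenes. Flies were kept at 25 degrees in a 12:12 light and dark cycle, and the RNA was ribo-depleted total RNA. Nothing in the labels says whether the replicates were separate cohorts of flies, so p-values measure the spread between these samples.

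The day 10 libraries held 8946125 to 15029770 gene counts and the day 40 libraries 8476220 to 12686867. Day 10 replicate 1 had the lowest share of junction reads, 21.1 per 100 gene counts against 23.7 to 27.4 in the other 5 libraries. Photoreceptor markers checked the tissue, and all 9 of them were counted in every library, led by the rhodopsin gene ninaE. Among these, inaD was counted only in a joint row with RpL23. None of the 9 passed the test between ages, with log2 changes from -0.31 for Arr1 to 0.26 for trp. Over all genes, 381 of 9255 tested rows (4.12%) passed the threshold, an adjusted p-value under 0.1 with the quasi-likelihood test of edgeR, with 2.14% higher and 1.98% lower at day 40. Values below are normalized counts, which are counts divided by a size factor for each library, unless another unit is named.

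Of the 10 member rows, 2 rose between day 10 and day 40, the row of dl and the joint row of Dif, and none fell. The background share called higher over all rows was 2.14%. The ligand, protease, serpin, receptor, adaptor, kinase and inhibitor rows did not pass the test, and neither did Drs, whose libraries were widely spread. Drs, dl and Dif had unadjusted p-values under 0.05 in edgeR, as did 14.3% of all rows. Of the 10 log2 changes 9 were above 0, against 48.9% of all tested rows. The median over the members was 0.18, against -0.01 over all rows, and the members ran from -0.05 for the spz row to 0.95 for Drs. The members were chosen with earlier results of these data known, so these shares are a description. In these whole-eye samples, more RNA per cell and more cells that hold the RNA cannot be told apart.

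**Figure D1:**
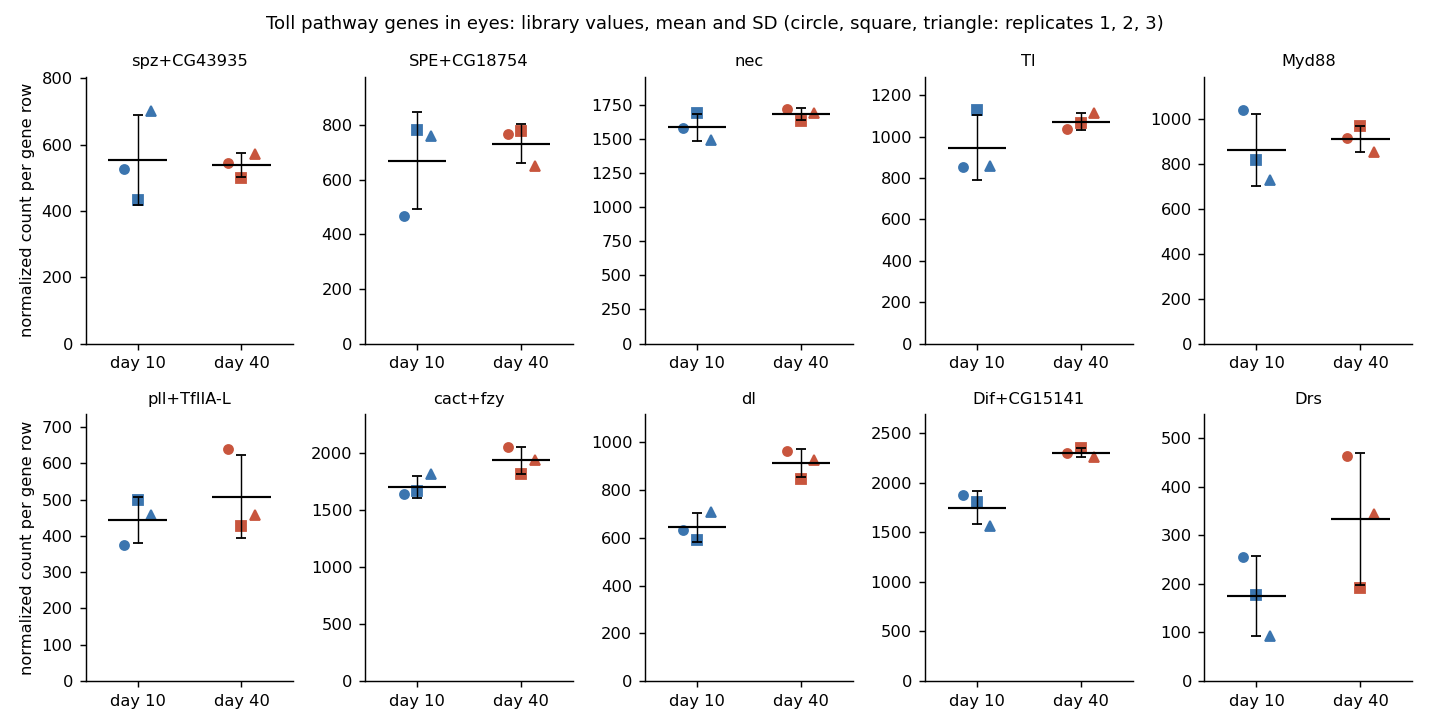
Normalized count (y axes, each from 0) of the 10 member rows in each library at day 10 (blue) and day 40 (red), with the mean as a bar and the SD as the whisker. The 3 day 40 values lie above the 3 day 10 values in the cact, dl and Dif rows, while the ages overlap in the other 7 rows.

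The ligand gene spz (FBgn0003495, chromosome 3R from 27064990 to 27070070) shares its row with CG43935, which lies within it. The row had 526, 434 and 700 normalized counts at day 10 and 544, 498 and 571 at day 40. The day 40 libraries all lay inside the range of the day 10 libraries. The log2 change of day 40 against day 10 was -0.05, with a standard error (SE) of 0.19 (adjusted p = 0.947 in edgeR), and its sign turned to 0.18 without day 10 replicate 3 and to 0.01 without day 40 replicate 2.

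SPE (FBgn0039102, chromosome 3R from 23686255 to 23688147), the protease that processes Spätzle, shares its row with CG18754 at its left end. Its row had 465, 784 and 762 normalized counts at day 10 and 767, 779 and 651 at day 40. Day 10 replicate 1 was the low library and the other 5 were close together. The log2 change of 0.12 (SE 0.19, adjusted p = 0.858 in edgeR) became -0.08 without that library.

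The serpin gene nec (FBgn0002930, chromosome 2R from 7156477 to 7158241) was among the least variable genes in these eyes. It had 1582, 1686 and 1489 normalized counts at day 10 and 1719, 1633 and 1687 at day 40. The ages overlapped, and the SD within an age was 0.046 on the log2 scale, lower than in all but 0.929% of the tested rows. Its log2 change of 0.08 had a 95% interval that corresponds to a fold between 0.912 and 1.23 (adjusted p = 0.783 in edgeR), so a change of more than about that size is outside the interval.

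The receptor gene Tl (FBgn0262473, chromosome 3R from 26799041 to 26842403) had 851, 1127 and 858 normalized counts at day 10 and 1037, 1065 and 1115 at day 40. Day 10 replicate 2 was the highest of all 6 libraries, so the ages overlapped. The log2 change was 0.18 (SE 0.12, adjusted p = 0.585 in edgeR), which is a fold of 1.13 with a 95% interval from 0.932 to 1.38. The adaptor gene Myd88 (FBgn0033402, chromosome 2R from 9302823 to 9308722) had 1038, 817 and 730 normalized counts at day 10 and 913, 967 and 854 at day 40. Here day 10 replicate 1 was the highest library, and the other 2 of that age were the lowest. The log2 change was 0.08 (SE 0.14, adjusted p = 0.862 in edgeR), and -0.01 without day 10 replicate 3.

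The gene of the kinase Pelle, pll (FBgn0010441, chromosome 3R from 27251131 to 27253182), lies within the span of TfIIA-L, a subunit gene of a general transcription factor. The joint row had 375, 499 and 457 normalized counts at day 10 and 640, 428 and 458 at day 40. Only day 40 replicate 1 stood above the day 10 libraries, and the log2 change of 0.19 (SE 0.18, adjusted p = 0.715 in edgeR) was 0.003 without it.

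The inhibitor gene cact (FBgn0000250, chromosome 2L from 16313036 to 16326207) overlaps the end of fzy, which encodes an activator of the mitotic cyclosome. Their row had 1638, 1665 and 1817 normalized counts at day 10 and 2055, 1819 and 1943 at day 40. All 3 day 40 libraries lay above all 3 day 10 libraries, by a narrow margin between day 10 replicate 3 and day 40 replicate 2. Such an order was found in 10.3% of all tested rows toward day 40, and 9.92% had the opposite one. The log2 change of 0.18 (SE 0.11, adjusted p = 0.512 in edgeR) did not pass the test.

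Both Rel factor rows rose. The gene dl (FBgn0260632, chromosome 2L from 17436830 to 17450364), which encodes Dorsal, had 633, 590 and 710 normalized counts at day 10 and 965, 849 and 928 at day 40. The ages did not overlap. The mean went from 645 ± 60.9 (SD, n = 3) to 914 ± 59.7 (SD, n = 3), a 1.41-fold rise with a 95% interval from 1.17 to 1.70 (log2 change 0.50, SE 0.12, adjusted p = 0.0785 in edgeR). DESeq2, which called 2.88% of rows as higher, gave an adjusted p of 0.0244. The rise stayed between 0.42 and 0.59 on the log2 scale when each library was left out, but the call was lost without day 10 replicate 2 (adjusted p = 0.153) and without day 40 replicate 1 (0.254), 2 (0.212) or 3 (0.261). Leaving out a day 40 library also lowered the calls over all rows from 381 to between 116 and 146.

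Dif (FBgn0011274, chromosome 2L from 17413248 to 17433161), the other Rel factor of the pathway and the neighbor of dl, overlaps CG15141 at its left end. The joint row had 1877, 1809 and 1565 normalized counts at day 10 and 2301, 2353 and 2264 at day 40. The ages did not overlap and the day 40 libraries were close together. The mean went from 1750 ± 164 (SD, n = 3) to 2306 ± 44.6 (SD, n = 3), a 1.32-fold rise with a 95% interval from 1.12 to 1.54 (log2 change 0.40, SE 0.10, adjusted p = 0.0914 in edgeR and 0.0603 in DESeq2). This call was close to the threshold. The adjusted p-value was 0.118 with another normalization and 0.132 without the filter on low counts, and it passed only without day 10 replicate 1 (0.0757) among the fits that left out a library. It was 0.157 without day 10 replicate 2, 0.174 without day 10 replicate 3, and 0.249, 0.439 and 0.271 without day 40 replicate 1, 2 and 3. The log2 change ran from 0.34 to 0.45 over these 6 fits.

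**Figure D2:**
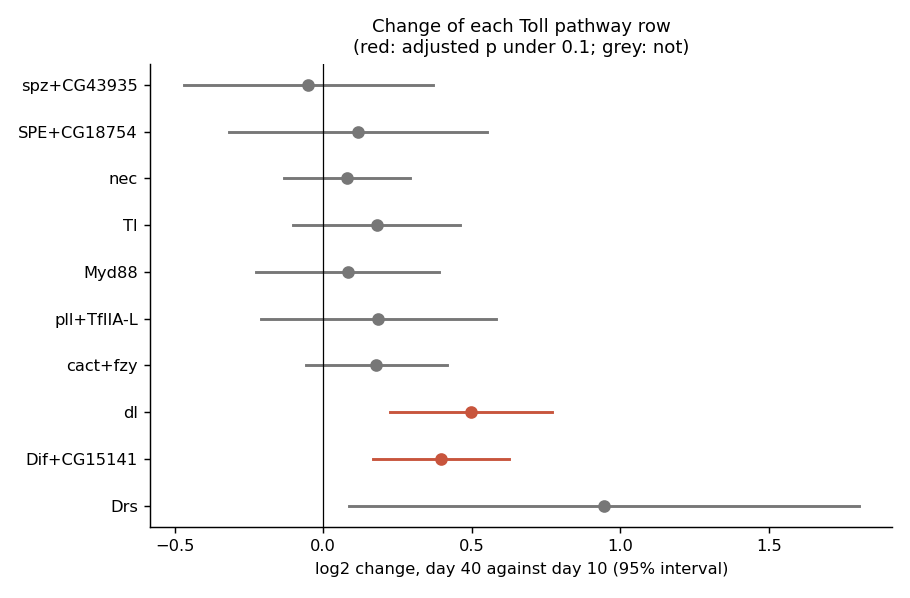
Log2 change at day 40 against day 10 (x axis) of each member row, with its 95% interval from edgeR as a line. The dl row at 0.50 and the Dif row at 0.40 (red) passed the adjusted threshold, and Drs at 0.95 has the widest interval, from 0.09 to 1.80.

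Drosomycin, the peptide that gives the pathway its usual readout, varied more between libraries of 1 age than most genes. Drs (FBgn0010381, chromosome 3L from 3369556 to 3369942) had 255, 177 and 91.9 normalized counts at day 10 and 463, 191 and 345 at day 40. Day 40 replicate 1 and replicate 3 lay above all day 10 libraries, but day 40 replicate 2 was below day 10 replicate 1. The mean went from 175 ± 81.7 (SD, n = 3) to 333 ± 136 (SD, n = 3), a log2 change of 0.95 (SE 0.38, adjusted p = 0.293 in edgeR). The SD of Drs within an age was 0.68 on the log2 scale, at percentile 91.0 of the tested rows. In DESeq2, which called 6.23% of rows in either direction, the adjusted p of Drs was 0.0998, just inside the threshold, and over the other fits it ran from 0.128 to 0.648.

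Read per length, the 5 members with a row of their own fell into an order that was mostly shared by both ages. In CPM (library-scaled counts) per kilobase of exon, nec went from 88.1 ± 3.51 to 93.2 ± 2.06 (SD, n = 3). Drs followed with 40.8 ± 18.7 (SD, n = 3) and 77.8 ± 31.2 (SD, n = 3), and at day 40 its libraries from 44.9 to 107 reached past those of nec, while at day 10 its lowest library fell among those of Myd88. Myd88 had 21.6 ± 3.80 and 22.9 ± 1.34 (SD, n = 3) and Tl had 16.5 ± 2.45 and 18.7 ± 0.902 (SD, n = 3), and their libraries overlapped at day 10. The level of dl was the lowest at both ages, 9.12 ± 1.08 at day 10 and 12.9 ± 0.780 at day 40 (SD, n = 3), with no library above any library of Tl. For scale, ninaE had a mean of 37420 CPM per kilobase at day 10.

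Over the 6 libraries, the rows whose log2 CPM followed that of Drs most closely were pk, lz, CG42246, CG18507 and ph-d, with Pearson correlations of 0.99, 0.98, 0.98, 0.96 and 0.96. Here pk encodes a planar polarity protein, lz a Runx factor of eye and blood cell development and ph-d a Polycomb group protein. None of these 5 passed the test between ages. Of 9254 other rows, 69 had a correlation of at least 0.9. How many rows would reach 0.9 over only 6 libraries without any relation to Drs was not tested, so the ranking is a description. Both ages enter each correlation, so a shared difference between ages can raise it. Of the member rows, nec (0.80) and Dif (0.75) were nearest to Drs, while the spz row (-0.32) and the SPE row (-0.28) were on the other side of 0. Of the Toll target list described below, BomS3 (0.899), BomT2 (0.893) and IBIN (0.857) were nearest, and only the BaraA1 row (-0.35) was below 0. The tested Imd peptide rows ran from 0.67 for AttB to 0.82 for CecC.

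The members hold 99 exonic parts and 70 annotated junctions, and no new junction was counted in them. Exonic parts are the pieces into which exon boundaries divide a gene, each belonging to a fixed set of transcripts, and usage is the count of a part or junction per 100 counts of its gene row. Usage was tested in edgeR as a change of the feature against the rest of its gene. Over all single genes, 2 of 59968 features passed an adjusted p-value of 0.05 (0.00334%), and 3.03% had an unadjusted p-value under 0.05. That share is below the level of 0.05 itself, so an uncalled feature may still have changed. With JunctionSeq, another test, the study reported more differential splicing events in these eyes. Of the 48 tested features of nec, Tl, Myd88 and dl, none passed and none had an unadjusted p-value under 0.05. DESeq2, which called 0.0417% of features, gave each of the 48 an adjusted p of 1. Drs has a single exonic part, so it has no usage to test.

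The largest set belongs to dl, with 15 exonic parts and 12 junctions from 6 annotated transcripts, and 24 of these 27 features were tested. At its left end the transcripts differ in their exons. E001, E002 and E003 belong to 4 transcripts, whereas E004 (17438646 to 17439189) and E006 (17439298 to 17441800) belong to the other 2. The usage of E006 was 23.2%, 32.2% and 30.7% at day 10 and 29.1%, 27.6% and 30.7% at day 40. These values overlapped, with a log2 change in usage of 0.03 (SE 0.26). The usage of E002 was 38.6%, 25.6% and 17.7% at day 10 and 25.7%, 24% and 25.5% at day 40. Day 10 replicate 1 was the high library for E002 and E003 and the low one for E006, E007 and E008. No change in the share of either end was called, with an SE of 0.38 for E002. The part of this uneven usage in the rise of dl was not tested. Without day 10 replicate 1 the rise of dl was 0.49 on the log2 scale (adjusted p = 0.0958 in edgeR).

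**Figure D3:**
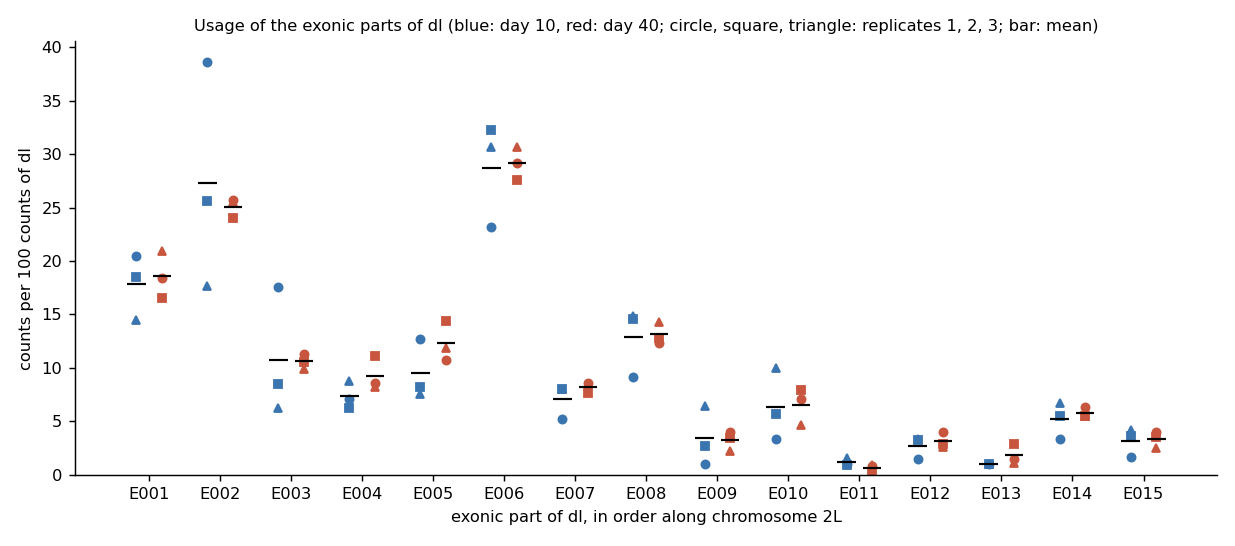
Usage of the 15 exonic parts of dl, in counts per 100 counts of the gene (y axis), in each library at day 10 (blue) and day 40 (red), with the mean as a bar. The ages overlap in every part but E013, and day 10 replicate 1 (blue circle) stands apart at E002 with 38.6%.

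At the right end of dl, junctions J023, J024 and J025 join E010 to 3 alternative outer exons. The lowest p-value in usage within dl was that of J025, which leads to E013 (17449296 to 17449368; log2 change 0.97, SE 0.51, unadjusted p = 0.0885, adjusted p = 1 in edgeR). Its counts were 2, 5 and 7 at the younger age and 8, 16 and 8 at the older. J024, which leads to E012 in 1 transcript, was read 0, 10 and 20 times in the day 10 libraries and 10, 12 and 13 times in those of day 40. J023, which leads to E011 (17445249 to 17445567), was read 2, 3 and 5 times in the day 10 libraries and in no day 40 library. Its 10 of 54 counts over these 3 junctions at day 10 are set against 0 of 67 at day 40, which allows a share of up to 4.48%. J023 was below the count minimum. With a minimum of 1 it was tested, with an unadjusted p of 0.00158 and an adjusted p of 1 in edgeR, and it was singled out after its values were seen. E011 itself was counted 5, 7 and 15 times among the day 10 libraries and 6, 2 and 10 times among those of day 40, so reads of that exon were present at both ages. E013 was higher in each day 40 library than in any day 10 library, at 1.04%, 1.04% and 1.05% against 1.52%, 2.90% and 1.09% (log2 change 0.74, SE 0.44, unadjusted p = 0.13 in edgeR). Such an order in either direction was found in 9.77% of tested features.

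Myd88 has 3 annotated transcripts and 10 tested features. Its lowest p-value was that of E007, the part at its right end, with a usage of 5.48%, 6.01% and 5.73% at day 10 and 7.45%, 7.18% and 7.32% at day 40. The ages did not overlap and each was tight, yet the log2 change of 0.37 (SE 0.23) had an unadjusted p of 0.146 and an adjusted p of 1 in edgeR. In Tl the lowest p-value was that of junction J008, counted 3, 8 and 2 times among the day 10 libraries and 7, 4 and 8 times among those of day 40 (log2 change 0.66, SE 0.52, unadjusted p = 0.237 in edgeR). The ages overlapped there. In nec it was junction J004, with a usage of 11.7%, 24.8% and 24.5% at day 10 and 30.2%, 25.4% and 24% at day 40 (log2 change 0.55, SE 0.37, unadjusted p = 0.173 in edgeR). Day 10 replicate 1, the library with the lowest share of junction reads, was the low one and day 40 replicate 1, with the highest share, the high one. The part of the junction share in these values was not tested.

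The features of the joint rows were tested in a fit that included such rows, with 96111 features in all. None of them passed an adjusted p-value of 0.05 in that fit, and 3.33% had an unadjusted p-value under 0.05. Among 89 tested features of the 5 joint member rows, 5 had an unadjusted p-value under 0.05, and in edgeR the adjusted p of each was 1. All 5 lie at the left end of a row, if parts are numbered along the chromosome as they were in all 12133 single genes whose positions are given. In the cact row the left end is fzy. Its E001 had 9.25, 9.98 and 33.6 normalized counts at day 10 and 9.33, 1.12 and 4.23 at day 40 (log2 change in usage -2.03, unadjusted p = 0.0164), and E002 had 14.5, 9.98 and 36.6 at day 10 and 1.33, 0 and 2.54 at day 40 (log2 change -3.87, unadjusted p = 0.000814). E003 changed by -0.96 (unadjusted p = 0.0299). These parts were a small part of the row, so its level rested mostly on the parts to their right. E012 alone held 48.7% ± 1.56 of its counts at day 10 and 47.9% ± 1.15 at day 40 (SD, n = 3).

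In the Dif row the left end is CG15141. E001 had 104, 68.3 and 108 normalized counts at day 10 and 57.3, 94.0 and 53.2 at day 40. E002 had 189, 174 and 161 at day 10 and 107, 200 and 156 at day 40. Neither part was higher at day 40 in all libraries, and against the rest of the row they changed by -0.91 (unadjusted p = 0.0246 in edgeR) and -0.66 (unadjusted p = 0.043). E004, which held the most counts of the row, had 471, 605 and 410 normalized counts at day 10 and 829, 803 and 767 at day 40. Its ages did not overlap, with a log2 change in usage of 0.44 (unadjusted p = 0.103), an order that 10.2% of the features in that fit had in either direction. The part at the right end, E014, can be given to Dif, with raw counts of only 0, 8 and 7 at the younger age and 6, 5 and 11 at the older. Which of the 2 genes the middle parts belong to is not given in the tables used here.

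In the other joint rows no feature had an unadjusted p-value under 0.05. In the SPE row the lowest was 0.0752 in edgeR, for E008, whose usage went from 0.647% ± 0.120 to 1.18% ± 0.035 (SD, n = 3). E008 had raw counts of only 2, 6 and 8 at day 10 and 7, 8 and 9 at day 40. If numbered in the same order, E001 to E006 lie at the left end of that row, where CG18754 is. They held at most 3 counts in any library, so the level of the row rested on the parts to their right. Which gene those parts belong to is not given. In the pll row the lowest p-value was 0.0639 in edgeR, for E004 with 6.17% ± 2.90 and 10.9% ± 1.59 (SD, n = 3). For the spz row it was 0.0884, for J024 with 3.65% ± 1.86 and 1.74% ± 1.03 (SD, n = 3).

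Upstream of the members, the recognition gene PGRP-SA and the joint row of PGRP-SD rose. A list of 35 other genes of the cascade gave 34 tested rows, of which 2 were higher and none was lower (5.88%, against 4.12% of all rows), with a median log2 change of 0.05. PGRP-SA encodes the circulating receptor for lysine-type peptidoglycan. It had 74.0, 87.5 and 76.2 normalized counts at day 10 and 237, 181 and 206 at day 40. The ages were far apart, and the rise was 1.38 on the log2 scale (SE 0.18, adjusted p = 0.00602 in edgeR). The row of PGRP-SD and CG7492 had 514, 550 and 458 normalized counts at day 10 and 873, 746 and 886 at day 40, a rise of 0.72 on the log2 scale (SE 0.12, adjusted p = 0.0189 in edgeR). Both calls held with each library left out, and in the fits with DESeq2 and with other normalization or filters. With a library left out, the adjusted p in edgeR reached 0.0413 for PGRP-SA and 0.0994, just inside the threshold, for the PGRP-SD row.

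Of the 4 recognition genes, GNBP1 (0.48, adjusted p = 0.419 in edgeR) and GNBP3 (-0.09, adjusted p = 0.849) did not pass. None of the 12 protease and protease homolog genes passed, with 8 log2 changes above 0 and 4 below. Those of the immune chain were modSP (0.05), grass (0.24), psh (0.36), the Hayan row (0.30), spirit (0.48), spheroide (-0.30), sphinx1 (-0.26) and sphinx2 (-0.21), with adjusted p-values from 0.343 to 0.9 in edgeR. Those of the embryonic chain were ea (0.03), the snk row (0.55), gd (-0.98) and the ndl row (0.33). The serpin gene Spn27A had a log2 change of 0.40 (adjusted p = 0.265 in edgeR). Inside the cell, tub, which encodes the partner of Myd88 and Pelle, had 444, 478 and 459 normalized counts at day 10 and 435, 482 and 490 at day 40, a log2 change of 0.02 (adjusted p = 0.959 in edgeR). The 7 other Toll receptor rows ran from -0.24 to 0.11 and none was called. Of the 5 other Spätzle family genes, spz6 was too low to test and the other 4 did not pass. The highest of these was spz3 at 0.58 (adjusted p = 0.304 in edgeR), which passed only without day 10 replicate 1 (0.0578).

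**Figure D4:**
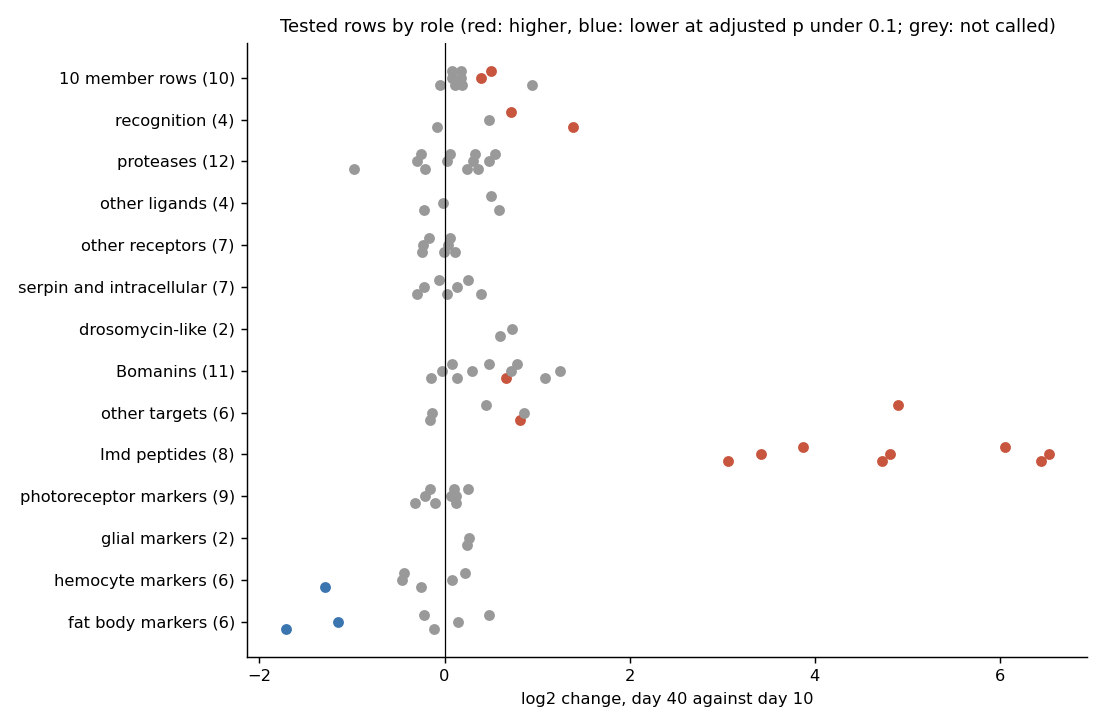
Log2 change at day 40 against day 10 (x axis) of each tested row, grouped by role, with the number of rows in parentheses. Red and blue points passed the adjusted threshold as higher or lower, so that the dl, Dif, PGRP-SA and PGRP-SD rows, 3 Toll target rows and all 8 tested Imd peptide rows are red, and 3 hemocyte and fat body rows are blue.

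Downstream, a Toll target list of 25 genes fell into 23 rows, since BomS4 shares a row with BomBc2 and BaraA1 with BaraA2. The list includes 6 drosomycin-like genes, which were chosen by their relation to Drs. Of the 19 rows that passed the filter on low counts, 3 were higher and none was lower (15.8%, against 4.12% of all rows), and 15 of the 19 log2 changes were above 0. Among the called rows, IBIN passed the filter only through its day 40 libraries, so this share partly follows from the filter and is given as a description. The 4 rows that did not pass the filter, Drsl1, Drsl2, Drsl3 and Drsl6, had at most 8 normalized counts in any library. These peptide genes are families of related sequence, and reads that fit several copies may have been split or dropped in the counting.

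BomBc3, a Bomanin gene, had 446, 442 and 334 normalized counts at day 10 and 637, 694 and 601 at day 40. The ages did not overlap, and the rise was 0.66 on the log2 scale (SE 0.14, adjusted p = 0.0438 in edgeR). Without day 40 replicate 1, 2 or 3 the adjusted p was 0.148, 0.25 or 0.127. Spn88Eb, a serpin gene that infection raises, had 219, 206 and 137 normalized counts at day 10 and 300.0, 346 and 337 at day 40. Its ages did not overlap either, with a rise of 0.82 on the log2 scale (SE 0.18, adjusted p = 0.0597 in edgeR). Its adjusted p was 0.1 without day 10 replicate 2, and 0.147, 0.251 or 0.206 without day 40 replicate 1, 2 or 3.

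IBIN, a short peptide gene that both Toll and Imd are known to raise, had 3.97, 4.61 and 1.49 normalized counts at day 10 and 131, 10.1 and 160 at day 40. Day 40 replicate 2 was far below the other 2 libraries of its age, and the row passed the filter only through its day 40 libraries. The log2 change was 4.89 (SE 0.96, adjusted p = 0.0372 in edgeR). The adjusted p was 0.117 without day 10 replicate 3, 0.133 when day 40 replicate 1 was left out and 0.000691 when day 40 replicate 2 was. The row was not tested when day 40 replicate 3 was left out.

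The other Bomanin rows did not pass. Of 11 rows, 1 was called and the log2 changes ran from -0.15 for BomS2 to 1.24 for BomBc1 (adjusted p = 0.167 in edgeR, 0.0227 in DESeq2). BomS3, the most highly counted of them, had 19440, 14190 and 8863 normalized counts at day 10 and 21300, 18700 and 19050 at day 40. These ages overlapped, and the low library was day 10 replicate 3, as for Drs. BomS1 was higher in each day 40 library than in any day 10 library (log2 change 1.09), with an adjusted p of 0.171 in edgeR. Leaving out 1 library brought BomS3 (0.0959 without day 10 replicate 1) and BomS1 and BomBc1 (0.0773 and 0.087 without day 10 replicate 2) past the threshold. BomS1 also passed without the filter on low counts (0.0992).

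Among the drosomycin-like genes, Drsl5 was counted far above Drs itself. Drsl5 had 7480, 5736 and 5869 normalized counts at day 10 and 14720, 7820 and 6485 at day 40. Its mean in CPM per kilobase was 1588 at day 10 and 2400 at day 40, against 40.8 and 77.8 for Drs. Day 40 replicate 1 was the high library of Drsl5, of Drsl4 and of Drs. Neither Drsl5 (log2 change 0.60, adjusted p = 0.368 in edgeR) nor Drsl4 (0.73, adjusted p = 0.569) passed. Metchnikowin, encoded by Mtk, had a log2 change of 0.85 (adjusted p = 0.358 in edgeR) from a mean of 36.3 ± 12.1 to 67.1 ± 28.6 normalized counts (SD, n = 3).

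**Figure D5:**
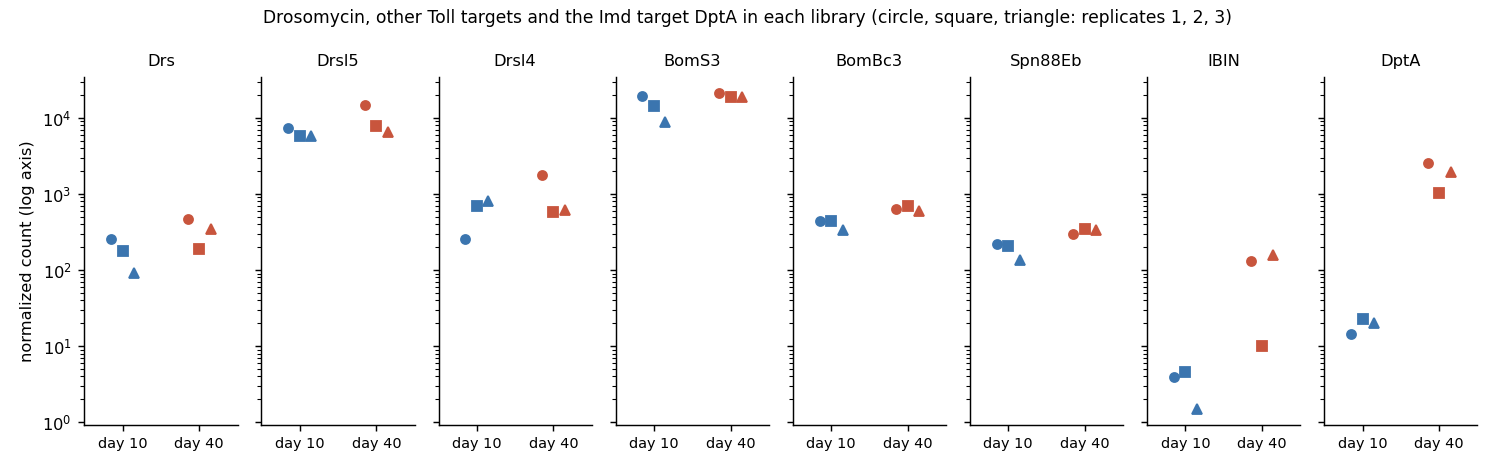
Normalized count (log axis) of Drs, 6 rows of the Toll target list and the Imd target DptA in each library at day 10 (blue) and day 40 (red). DptA lies between 14.5 and 23.03 at day 10 and between 1031 and 2585 at day 40, while the ages of Drs, Drsl5, Drsl4 and BomS3 overlap.

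The antimicrobial peptide genes of the Imd pathway, the other NF-κB pathway of the fly, are set beside these values as a description. Of 11 such genes, 8 passed the filter and all 8 were higher at day 40 in edgeR, against 2.14% of all rows. Their rises ran from 3.07 for the DptB row to 6.53 for DptA on the log2 scale. Several passed the filter mainly through their day 40 libraries, so this count partly follows from the filter. The 11 rows summed to between 233 and 295 normalized counts at day 10 and between 3244 and 8036 at day 40. The other called rows were AttB (4.72), the AttC row (3.42), CecA1 (6.45), CecA2 (6.05), CecC (4.81) and Dro (3.87). AttA, AttD and CecB were too low to test. Drs was 0.865, 0.762 and 0.346 times the summed normalized counts of these 11 rows at day 10 and 0.0576, 0.059 and 0.0448 times at day 40. These ratios are a description, since the peptide rows that form their denominator were themselves called higher.

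Markers of other cells that could carry Toll targets were counted as well. Over all tested rows, 1.98% were called lower at day 40. Of 6 hemocyte marker rows, Hml was lower (log2 change -1.29, adjusted p = 0.0272 in edgeR) and none was higher, and all 6 were counted in every library. The log2 change was above 0 in 2 of the 6 and below 0 in 4, and the He, srp and Pxn rows are joint rows. The call of Hml was lost without day 40 replicate 1 (0.133) or 2 (0.119). Of 7 fat body marker rows, Lsp1beta (-1.72, adjusted p = 0.000148) and the Lsp2 row (-1.15, adjusted p = 0.016) were lower, none was higher, and Lsp1gamma was at 0 in 4 libraries. Of the 6 fat body rows tested, 2 had a log2 change above 0 and 4 below. The summed hemocyte rows held between 6634 and 9343 normalized counts in the day 10 libraries and between 4302 and 5060 in the day 40 libraries. In the fat body list 1 joint row, Zyx with apolpp, held most counts (94750 to 123200 at day 10 and 89130 to 100700 at day 40; log2 change -0.12, adjusted p = 0.839 in edgeR), so the summed rows (100000 to 128600 and 90910 to 103400) mostly follow it. Neither glial marker passed (moody, log2 change 0.27, adjusted p = 0.268; the repo row, 0.24, adjusted p = 0.425). The eye pigment gene w was lower (-1.37, adjusted p = 0.00421) and so was the lens gene Crys (-1.93, adjusted p = 0.0308), whose call was lost without day 40 replicate 2 (0.134) or 3 (0.115). All libraries come from w mutants that carry transgenes, and the source of the reads in the w row was not tested. The part of these markers in the changes of Drs, dl, Dif and the recognition genes was not tested.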

How the data were processed

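RNA-seq libraries of eyes, 3 at day 10 and 3 at day 40, were grouped by the age in their labels. The deposited files hold raw counts of the authors, 1 file a library, for genes, exonic parts and junctions in JunctionSeq layout. Per the labels, reads were processed with Trimmomatic and TopHat on BDGP6, and versions were not given in the sources used here. Overlapping genes were counted as 1 row. The deposited table of comparisons holds log2 changes and p-values of the authors, which were not used. Its feature positions were used, with 1 added to starts. Of 17560 gene identifiers, 17253 were named by ID and 136 by position in Release 6. No sequences were read.

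Gene rows were tested with edgeR 4.0.16 in R 4.3.3 (quasi-likelihood, TMM, its default filter, Benjamini-Hochberg, threshold 0.1). Usage was tested as an interaction of feature and age with library terms, on features whose normalized counts averaged 5 or more, threshold 0.05. Standard errors and 95% intervals are from these fits. DESeq2 1.42.0, other normalization, filters and thresholds, a replicate block and leaving out each library were alternatives. Both tests were checked on simulated data with large changes set only in well-counted genes and features, so the check does not cover low features. Counts limit the precision of low features, and limits for a count of 0 use 3 counts and cover counting error only. The members and lists were chosen with earlier results of these data known. Named genes are the members, list genes past the threshold (at most 8 a list), or the 2 with the lowest p, and for usage the lowest p of each member and every feature with p under 0.05. Other genes were named after their values were seen.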

Additional observations from a re-analysis of the deposited data

How the results depend on the processing

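No member feature was called in usage under any alternative. Myd88 E007, Tl J008, dl J025 and nec J004 kept their sign in every alternative that tested them, while Tl J008 and dl J025 were below the minimum of 10 and the features of the joint rows were tested in 1 fit only. The calls over all genes were 601 in DESeq2 and 221 at a threshold of 0.05, and between 116 and 459 with each library left out. Member genes called were 1 with other normalization factors (RLE), 1 without the filter on low counts, 0 at a threshold of 0.05 and between 0 and 2 with each library left out. Toll targets called ranged from 0 to 4 with each library left out. Features called in usage were 25 in DESeq2, 0 with joint rows included, 1 with a minimum of 10, 0 with the replicate block and between 0 and 2 with each library left out. With each library left out, the log2 change of spz ran from -0.21 to 0.18 (reversed without day 10 replicate 3 or day 40 replicate 2), that of SPE from -0.081 to 0.24 (reversed without day 10 replicate 1) and that of Myd88 from -0.010 to 0.23 (reversed without day 10 replicate 3). The cause of these differences was not tested, beyond the smaller number of libraries. Libraries with the same replicate number did not deviate together (correlations of 9.9e-05, -0.014 and 0.146), so the numbers were not taken as pairs. With the replicate block, 464 genes were called and the block changed no call of a member gene. Among the Toll targets it added BomT2 (adjusted p = 0.0412, against 0.499 without the block and 0.765 in DESeq2).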
